A study of Mus musculus with 12 samples.

Results

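Colorectal tissue taken 10 weeks after azoxymethane (AOM) with dextran sulfate sodium (DSS) was compared with colorectal tissue taken 1 week after AOM alone, with 3 arrays in each group out of 12 in the series. The 6 arrays were chosen by their titles. Of the 145548 probes on the array, 59577 were well above background on at least 3 of these 6 arrays and were tested. All tissue came from male C57BL/6 mice. Every animal behind the 6 arrays had a single AOM injection of 10 mg/kg, so the carcinogen is shared by both groups. DSS, at 2% in the drinking water, began 7 days after the injection, lasted 7 days per course and was followed by 14 days of plain water, with 3 courses in all. The 10-week group is labelled tumour and the 1-week group is labelled inflammation, although by the protocol DSS had not yet been given at 1 week. The other 6 arrays, from untreated mice at 0 weeks and from AOM/DSS mice at 2 weeks, entered the fit only through the spread between replicates, and their levels are given beside the comparison where they help. Whether the arrays came from different animals is not in the labels, so the p-values rest on a spread between arrays that may be technical in part. The DSS courses, the tumour state and the time since the injection changed together and cannot be told apart.

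AOM is a procarcinogen that is converted in the liver and colon to a DNA-methylating agent, and the lesions it leaves in crypt cells can become mutations that drive growth. DSS strips and injures the colonic epithelium, and repeated courses add cycles of ulceration, leukocyte infiltration and repair, during which the mutated crypts grow into adenomas and carcinomas of the distal colon. Set against AOM alone, tissue at 10 weeks therefore differs in what follows the carcinogen.

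Both sources of values named by the comparison's rule were used. The deposited log2 values, which had the same median of 2.92 on every array, are the main source, and "level" below means a deposited log2 value. Beside them stands the scanner's processed signal on the log2 scale, from which each array's 75th percentile over probes detected on all 12 arrays was subtracted; this is called the scaled processed signal. The 10-week arrays were brighter before scaling, with 59323 to 64621 probes well above background against 51251 to 58410 at 1 week, and a median processed signal of 10.0 to 11.1 against 5.38 to 6.67. The 3 arrays at 10 weeks shared 1 slide, 1 scan and a scan day with no other array, while the 1-week arrays lay on 2 slides, so slide, scan day and group cannot be told apart. Arrays correlated across tested probes at 0.972 to 0.979 within 10 weeks, 0.969 to 0.974 within 1 week and 0.918 to 0.946 between the groups; probes are not independent replicates.

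Many of the tested probes differed between the groups. With the deposited values, 12860 of 59577 probes (21.6%) passed an adjusted p of 0.05 in limma with Benjamini-Hochberg adjustment, 5517 of them higher (9.26%) and 7343 lower (12.3%) at 10 weeks. At least 2-fold changes numbered 2573 among the rises and 3102 among the falls, and 77 rises and 43 falls met the rule for named probes and reached 8-fold. The median change over all tested probes was 0.02 on the log2 scale.

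The scaled processed signal gave 16253 calls (27.3%), with the balance turned to 11118 higher (18.7%) and 5135 lower (8.62%) and a median change of 0.24. Of the probes called with the deposited values, 5149 were also called higher (8.64%) and 4622 also called lower (7.76%) with the scaled signal, together 16.4% of those tested, and 0 were called in opposite directions. A further 2721 were lower and 368 higher with the deposited values only, and 5969 were higher and 513 lower with the scaled signal only. Over all 6 scalings that were run, 2985 probes were called higher and 3068 lower every time. Rises therefore made up 42.9% of calls in the deposited values, 68.4% in the scaled signal, 86.6% in the unscaled signal and 27.4% when the percentile was taken over all probes, and no direction of the balance is given here.

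**Figure D1:**
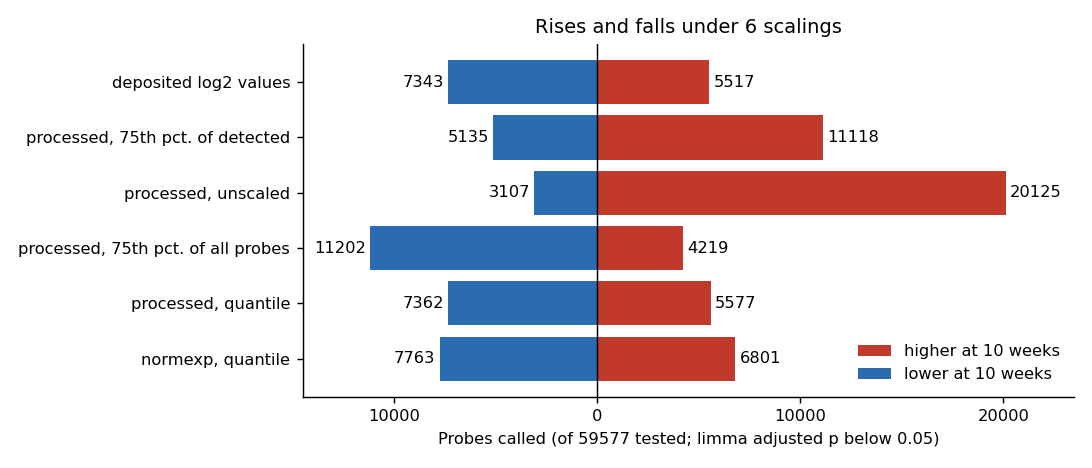
Probes called higher (red, to the right) and lower (blue, to the left) at 10 weeks against 1 week under 6 scalings, in numbers of probes out of 59577 tested. The deposited values gave 5517 higher and 7343 lower, the unscaled processed signal 20125 and 3107.

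The sources differed most among dim probes and least among bright ones. Tested probes were ordered by their level on the 0-week and 2-week arrays, which enter the fit only through the spread. The dimmest 19859 had 1862 rises and 1306 falls with the deposited values but 5326 and 368 with the scaled signal. The middle 19859 had 1711 rises and 2744 falls with the deposited values and 3972 and 1250 with the scaled signal, so the balance turned over there. The brightest 19859 had 1944 rises and 3293 falls with the deposited values and 1820 and 3517 with the scaled signal, so falls outnumbered rises among bright probes in both. Among the 46687 probes above background on all 6 arrays, 4793 were higher and 7007 lower with the deposited values.

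**Figure D2:**
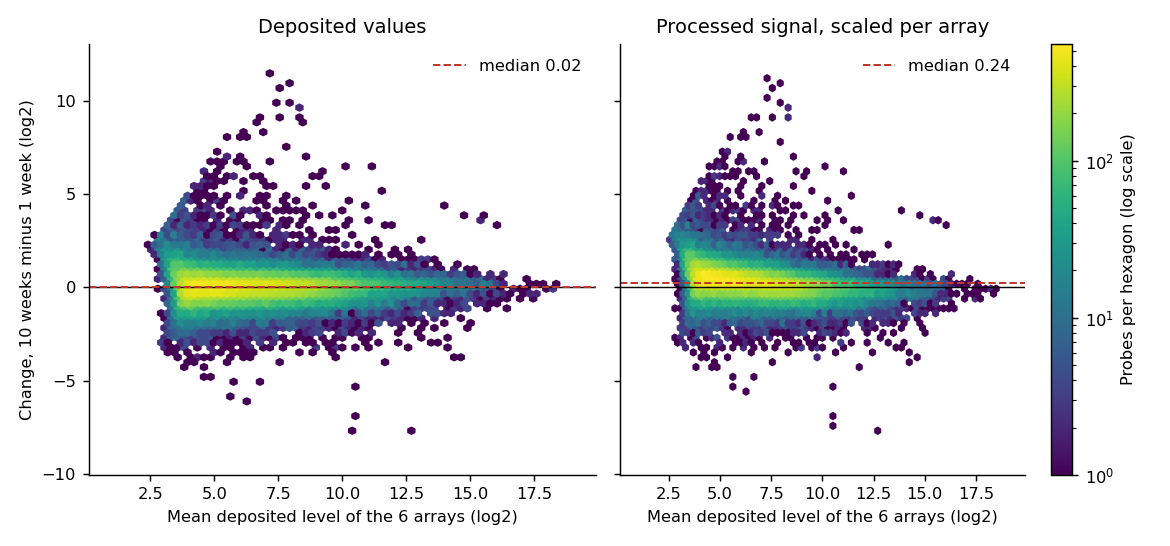
Change at 10 weeks minus 1 week (log2, vertical axis) against the mean deposited level of the 6 arrays (log2, horizontal axis) for 59577 tested probes, with the deposited values on the left and the scaled processed signal on the right; colour gives probes per hexagon on a log scale. The dashed line marks the median change, 0.02 on the left and 0.24 on the right, and on the right the cloud lies above 0 at low levels.

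The probes that moved farthest have no gene name in the files. They are printed because they carry the largest rises and falls that met the rule and because their sequences are the only identity the files give. All 4 are catalogue probes, written 5′ to 3′ as deposited.
A_55_P2068510: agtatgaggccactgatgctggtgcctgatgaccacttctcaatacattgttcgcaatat
A_51_P484526: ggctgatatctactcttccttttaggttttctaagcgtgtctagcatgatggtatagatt
A_55_P2092633: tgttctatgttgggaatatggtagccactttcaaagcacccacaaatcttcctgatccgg
A_55_P2057189: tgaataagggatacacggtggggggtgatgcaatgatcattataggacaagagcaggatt

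Probe A_55_P2068510 read 11.83, 13.64 and 13.29 at 10 weeks and 3.89, 3.52 and 4.04 at 1 week, where 2 of 3 arrays were above background. Every 10-week array stood far above every other array of the series, since the means were 4.44 at 0 weeks and 4.01 at 2 weeks. The rise was 9.10 (SE 0.42, limma adjusted p = 1.05e-06), or 550-fold, and 9.13 in the scaled signal, but 6.77, or 109-fold, with normexp background correction, whose offset of 50 shrinks rises from dim signals by construction. Probe A_51_P484526 read 11.39, 12.30 and 11.42 at 10 weeks and 3.77, 4.39 and 3.99 at 1 week, where again 2 of 3 arrays were above background. It rose by 7.65 (SE 0.29, limma adjusted p = 4.44e-07), or 201-fold, and by 5.39, or 41.9-fold, with normexp, and its means were 3.92 at 0 weeks and 4.35 at 2 weeks. The size of both folds thus depends on the background correction. Among the 4 groups, both were high at 10 weeks alone.

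The falls followed another course. Probe A_55_P2092633 read 8.25, 9.14 and 8.95 at 10 weeks against 16.67, 15.98 and 16.53 at 1 week. The fall was 7.61 on the log2 scale with the 95% interval of the change from -9.24 to -5.99 (limma adjusted p = 0.000121). Probe A_55_P2057189 read 6.12, 6.91 and 6.84 at 10 weeks against 14.37, 13.76 and 14.44 at 1 week, a change of -7.57 (SE 0.61, limma adjusted p = 3.55e-05). The 0-week means, 16.38 and 13.72, lay with 1 week, and the 2-week means, 8.61 ± 2.02 and 6.75 ± 1.59 (SD, n = 3), lay with 10 weeks. On 1 of the 3 arrays at 2 weeks the levels were 10.93 and 8.58, above the other two.

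**Figure D3:**
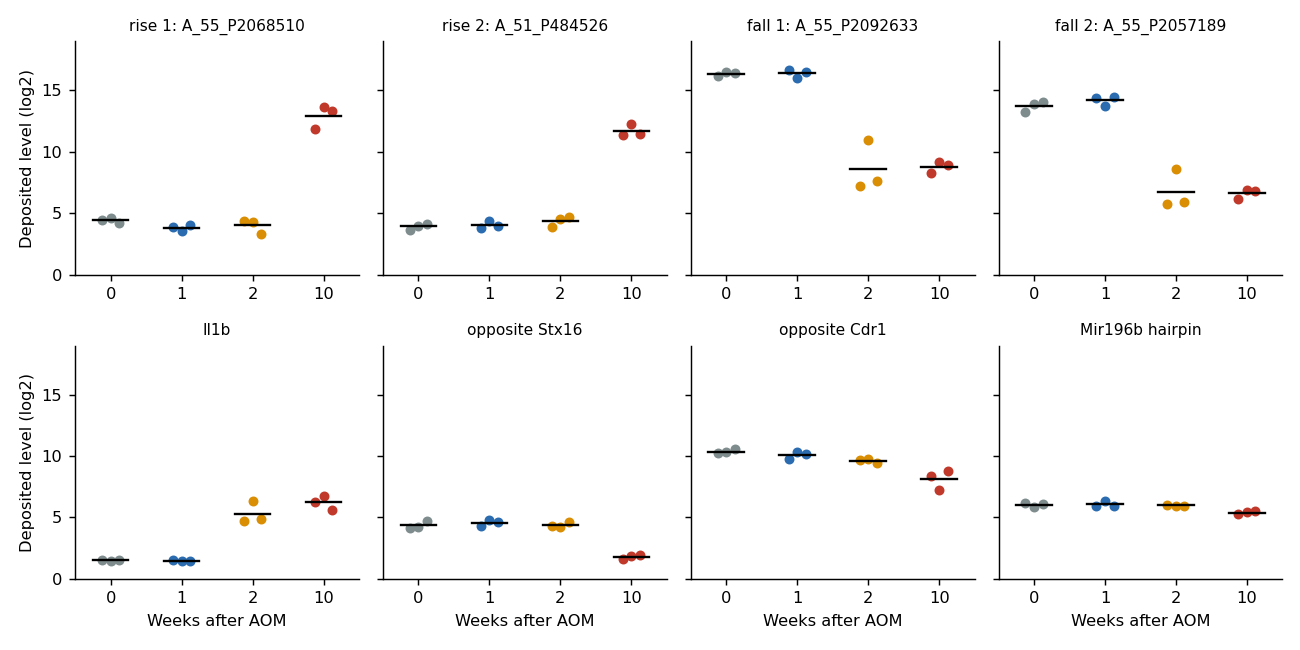
Deposited level (log2) of 8 single probes on 12 arrays by week after AOM; each point is 1 array and each bar the mean of 3. The 2 largest rises are high at 10 weeks only, the 2 largest falls and Il1b already differ at 2 weeks, and the probe opposite Stx16 is low at 10 weeks only.

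Some probes were detected in 1 of the groups only. On all 3 arrays at 10 weeks and on 0 at 1 week, 1947 probes (1.34% of 145548) were above background, and 260 (0.179%) the other way. Of the 1947, 1354 were also at 0 arrays at 0 weeks and 1476 at 0 arrays at 2 weeks, while 72 were seen on all 3 arrays at 2 weeks. Of the 260 seen only at 1 week, 160 were seen on 3 arrays at 0 weeks and 81 on 3 arrays at 2 weeks. Custom probes made up 1115 of the 1947 (57.3%), against 54.2% of the array. Catalogue probes made up 180 of the 260 (69.2%), against 35.5% of the array. Among the tested probes, which had to be detected, 31995 were catalogue and 24680 custom, so shares of the array are not those of detected probes. Detection was a property of each array before any scaling, so the brighter 10-week arrays bear on these counts, and their part in them was not tested. These probes entered the test through the group in which they were seen; 864 of the 1947 were called higher and 246 of the 260 lower.

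Genes could be named for a small share of probes. The files repeat the probe ID in place of a gene name, so each 60-base probe was searched for an exact stretch of at least 25 bases in the RefSeq promoter windows (from 250 bases before to 50 bases after a gene's start) and miRNA hairpins of build GRCm38.p6, and a probe found in 1 place only was paired with the RefSeq gene on the same strand there. Uniqueness holds among these windows, not in the whole genome, and the tables do not say whether a position is exonic or intronic. This paired 490 probes with 473 genes, of which 219 were tested. They are a sample set by position near a gene start, often that of a neighbour, and not by function. Of the 219 genes, 25 were higher and 25 lower (22.8% called, against 21.6% of all tested probes), 23 and 18 of them in both sources, with a median change of 0.03. Protein-coding genes had 18 rises and 21 falls among 154, and long non-coding RNA genes 7 rises and 4 falls among 65. The share called is near the background.

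The clearest change in an inflammatory gene was in Il1b. It encodes interleukin-1β, a cytokine made as a precursor by activated myeloid cells and cleaved by the inflammasome, which recruits neutrophils and drives mucosal inflammation. Its probe is shown because it is the only member of the cytokine list that could be tested. All 60 bases lie at chr2:129369729-129369788 of GRCm38.p6 on the minus strand, 1376 bases inside the gene from its start.
A_55_P2720183: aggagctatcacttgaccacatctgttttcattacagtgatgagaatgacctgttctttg
Il1b read 6.29, 6.78 and 5.59 at 10 weeks and 1.49, 1.44 and 1.46 at 1 week, where no array was above background. The 3 arrays at 0 weeks were as low, with a mean of 1.49, and those at 2 weeks, at 4.71, 6.36 and 4.86, were all above background. The fitted change was 4.76 (SE 0.39, limma adjusted p = 4.12e-05) and 4.94 in the scaled signal. The probe passed the filter through the 10-week arrays alone, so this adjusted p is given as a description. Because the 1-week level is only a bound, Il1b was at least 6.42-fold higher at 10 weeks in the deposited values, and at least 8.44-fold in the scaled signal. This bound sets the 10-week mean against the lowest signal that counted as above background on each 1-week array. With normexp the change was 1.2 on the log2 scale, the smallest of the 6 scalings, and still passed (limma adjusted p = 0.00118). That is less than either bound, so each bound holds only for its own source of values.

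Adam8, a membrane metalloprotease of leukocytes that sheds cytokine receptors and adhesion molecules, followed a like course. It read 4.93, 5.50 and 5.06 at 10 weeks and 1.78, 3.26 and 3.05 at 1 week, where it was above background on no array, and averaged 2.09 at 0 weeks and 4.57 at 2 weeks. The change was 2.47 (SE 0.39, limma adjusted p = 0.00194), at least 3.08-fold in the deposited values, but only 0.47 on the log2 scale with normexp. Only 32 bases of its probe were placed, 42 bases from the end of the gene. Rhox4e, a reproductive homeobox gene of a cluster of near-identical copies on the X chromosome, read 4.34, 4.49 and 4.39 against 2.64, 2.10 and 3.69. Its change of 1.59 (SE 0.41, limma adjusted p = 0.0195) was at least 1.69-fold in the deposited values, but only 0.31 with normexp. The copies may share the signal.
Gm30125 and Defb36, a beta-defensin gene, were likewise above background on 3 arrays at 10 weeks and on 0 at 1 week. Like Il1b, Adam8 and Rhox4e, these genes passed the filter through the 10-week arrays alone, so the adjusted p of each is a description. Their changes were 0.52 (limma adjusted p = 0.314) and 0.14 (limma adjusted p = 0.739) in the deposited values, and 1.07 and 0.69 in the scaled signal, where Gm30125 passed. No paired gene was seen at 1 week only.

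Among genes detected in both groups, the largest fall was in C1qtnf3, which encodes a secreted protein of the C1q and TNF related family made by adipose and connective tissue. It read 5.21, 5.07 and 4.46 at 10 weeks and 7.23, 7.07 and 6.91 at 1 week. It was 4.46-fold lower, a change of -2.16 (SE 0.26, limma adjusted p = 0.000428), and -1.82 in the scaled signal. The 0-week mean was 7.14 and the 2-week mean 5.87, between the groups. Neurl3, an E3 ubiquitin ligase of the neuralized family, read between 5.2 and 6.16 at 10 weeks against 6.87, 7.23 and 6.99 at 1 week, a change of -1.43 (SE 0.25, limma adjusted p = 0.00292). Il17rc, a receptor subunit through which IL-17A and IL-17F signal in epithelium, read 9.32, 9.22 and 9.54 against 10.49, 11.07 and 10.34. Its change was -1.27 (SE 0.20, limma adjusted p = 0.00171), 2.42-fold lower, although only 25 bases of the probe were placed, 33 bases from the end of the gene.

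Acad11, an acyl-CoA dehydrogenase of fatty acid breakdown, read 8.94, 8.93 and 9.91 at 10 weeks and 10.68, 10.61 and 10.40 at 1 week, a change of -1.31 (SE 0.27, limma adjusted p = 0.00671). Ndufa11 and Ndufa9, subunits of respiratory complex I, changed by -0.77 (SE 0.15) and -0.67 (SE 0.15), with limma adjusted p of 0.00603 and 0.00911. Ndufa11 read between 10.30 and 10.61 at 10 weeks and between 11.17 and 11.32 at 1 week, and Ndufa9 between 7.70 and 7.84 against 8.16 to 8.57. Groups apart were a condition for naming both genes. Another complex I gene, Ndufa13, and the mitochondrial ribosomal gene Mrpl43 met the same criteria with smaller changes than the 12 falls, at -0.67 and -0.42; they are named after their values were seen. Mrpl2, of the same ribosome, had a change of -0.01 (limma adjusted p = 0.975), and the import genes Timm10b and Timm22 had -1.33 (limma adjusted p = 0.00661, and 0.0584 in the scaled signal) and -0.68 (limma adjusted p = 0.208).
Rdh9, a short-chain dehydrogenase of retinol and steroids, went the other way. It read 6.50, 7.56 and 6.57 against 5.61, 5.71 and 6.06, a change of 1.08 (SE 0.26, limma adjusted p = 0.0140).

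Genes of signalling and transport moved in both directions. Spns2, which exports sphingosine-1-phosphate, read 6.61, 5.69 and 7.23 at 10 weeks and 4.81, 4.44 and 5.68 at 1 week, so the lowest 10-week array and the highest 1-week array nearly met. Its change was 1.53 (SE 0.40, limma adjusted p = 0.0192). Arhgef1, an exchange factor that activates RhoA downstream of G proteins, read 6.59, 6.23 and 6.13 against 5.67, 5.38 and 4.70, a change of 1.07 (SE 0.25, limma adjusted p = 0.0127). Kcnmb4, a regulatory subunit of calcium-activated potassium channels, rose by 0.82 (SE 0.19), from a mean of 4.86 to 5.68.
Trpc1, a cation channel subunit, read 4.04, 3.88 and 4.41 at 10 weeks and 5.16, 5.49 and 5.48 at 1 week, and changed by -1.26 (SE 0.19, limma adjusted p = 0.00140). Plce1, a phospholipase C that binds Ras, fell from a mean of 7.36 to 6.40, and Trak1, an adaptor that links mitochondria to kinesin, from 7.87 to 6.88. Their changes were -0.96 (SE 0.18) and -0.98 (SE 0.21).

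Nuclear genes were also on both sides. Trp53rkb, one of a pair of mouse genes for a kinase of p53, read 7.90, 7.01 and 8.24 against 6.19, 6.04 and 6.63, a change of 1.43 (SE 0.36, limma adjusted p = 0.0167). H4c8, a histone H4 gene whose near-identical copies may share its probe, rose by 0.85, Otx2, a homeodomain factor of brain and eye, by 0.68, and Csrnp1, a nuclear protein, by 0.63. Ino80dos, a long non-coding RNA gene named for the opposite strand of Ino80d, read 6.14, 5.90 and 5.94 against 5.2 to 5.53 at 1 week, a change of 0.67 (SE 0.16, limma adjusted p = 0.0141). Camta2, a calmodulin-binding coactivator, read 6.51, 6.43 and 6.83 against 7.82, 7.64 and 7.52, a change of -1.07 (SE 0.16, limma adjusted p = 0.00163). Lmx1b, a LIM homeodomain factor, changed by -1.05 (SE 0.33, limma adjusted p = 0.0415).
Of the remaining genes that met the rule, Gsg1 rose by 0.87, Tulp4, of the tubby family, by 0.71, and Cadm2, a cell adhesion molecule, by 0.70, while Atraid, a retinoic acid induced differentiation factor, fell from 10.68 to 9.97.

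**Figure D4:**
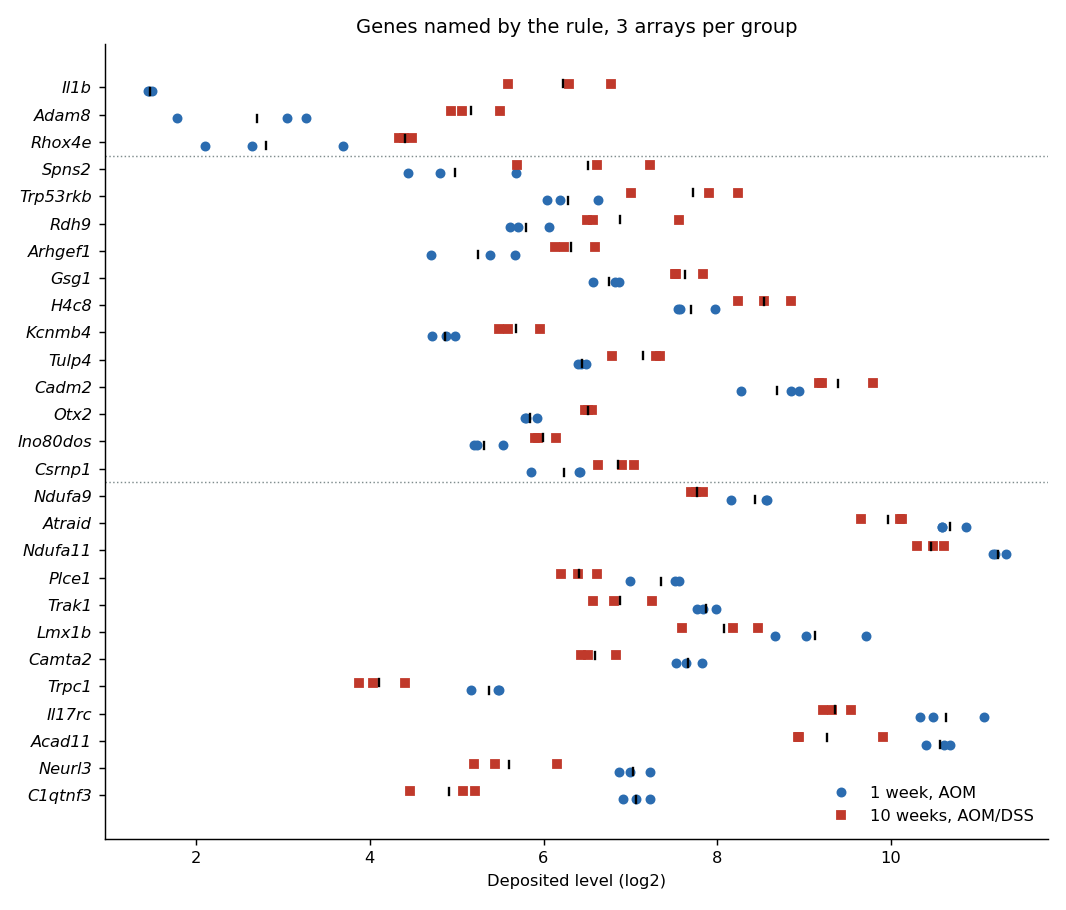
Deposited levels (log2) of the 27 named genes on each of 3 arrays at 1 week (blue circles) and 10 weeks (red squares), with vertical bars for the group means. Genes above the first dotted line were not above background at 1 week, the middle block rose and the lowest block fell. Groups that do not overlap were required of the genes below that line, and those of Spns2 nearly touch. Over all tested probes, 19.3% had all 10-week arrays above all 1-week arrays and 20.7% had them below.

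Some of these calls depended on which arrays were fitted. Of the 27 called genes in that plot, 17 were called in all 6 fits that left out 1 array and 10 lost the call in at least 1. Otx2 lost it in all 6, with changes of 0.65 to 0.72 and an adjusted p of up to 0.0855. Tulp4, Cadm2 and Csrnp1 lost it in 5 of 6, with changes of 0.61 to 0.88, 0.50 to 0.83 and 0.44 to 0.74. Their limma adjusted p went up to 0.122, 0.163 and 0.171. With all arrays it was 0.0399, 0.0469 and 0.0496, so these calls lay close to the threshold. Spns2 lost it without 1-week replicates 1 and 2 and 10-week replicates 1 and 3 (changes of 1.17 to 1.94), and Lmx1b without 1-week replicates 2 and 3 and 10-week replicates 1 and 2 (-1.29 to -0.76). Rhox4e lost it without 1-week replicates 1 and 2 and 10-week replicate 2 (1.24 to 2.04), Trp53rkb without 1-week replicate 2 and 10-week replicates 1 and 3 (1.17 to 1.78), and H4c8 without 1-week replicates 1 and 2 and 10-week replicate 1 (0.69 to 1.00). Ino80dos lost it without 1-week replicate 2 alone (0.61, limma adjusted p = 0.0524), and leaving out that array ended the call of all 10 genes. Tulp4, Cadm2, Otx2, H4c8 and Csrnp1 also missed the threshold when the percentile was taken over all probes, and Lmx1b did in the unscaled signal. When only the 6 arrays were fitted, the changes stayed as they were but the limma adjusted p rose past the threshold for Atraid (0.0518), Tulp4 (0.0539), Rdh9 (0.0553), Spns2 (0.0595), Lmx1b (0.0713), Csrnp1 (0.0962) and Cadm2 (0.108).

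The gene lists for this tissue were mostly out of reach. The 28 lists of pathways and cell type markers held 534 genes, of which 5 were paired with a probe and 3 were tested. Il1b was the only one called. Uchl1, a neuronal ubiquitin hydrolase on the list of enteric neurons and glia, read 6.53, 6.48 and 6.20 at 10 weeks and 5.63, 5.75 and 5.79 at 1 week. The groups did not overlap, but the change of 0.68 (SE 0.49) missed the threshold (limma adjusted p = 0.350), and it passed when only the 6 arrays were fitted (limma adjusted p = 0.0402). Prph, a neuronal intermediate filament of the same list, had a change of -0.04 with a 95% interval from -0.39 to 0.31. The markers of colonocytes, goblet cells and the other epithelial and immune types were not paired, so the labels of tissue and tumour could not be checked against markers, and in bulk tissue fewer cells of a type cannot be told from less RNA per cell.

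Some probes lie where RefSeq has no gene on their own strand. Of 159 such placements, 95 were antisense to the gene whose start they lie near, with 13 rises and 7 falls, and 64 were in its sense, with 7 and 2. The 29 calls are 18.2% of the placements, against 21.6% of all tested probes, so the set as a whole was near the background. In 22 of the 159 a gene without a strand in the tables also lay there, and none of the placements named below is among these. The probes below are shown because they carry the largest called changes of this kind, and were chosen after their values were seen; capitals mark the bases found in the window where the match was partial.
CUST_OEV3_043736: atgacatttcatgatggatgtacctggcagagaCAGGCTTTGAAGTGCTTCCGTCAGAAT
CUST_OEV3_060811: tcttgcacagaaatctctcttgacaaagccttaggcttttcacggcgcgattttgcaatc
A_55_P2158314: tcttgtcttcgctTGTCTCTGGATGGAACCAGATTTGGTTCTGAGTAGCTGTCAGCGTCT
A_55_P2025655: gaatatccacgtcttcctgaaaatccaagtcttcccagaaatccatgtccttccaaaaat

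The first, opposite the long non-coding gene Gm35404 at chr10:121243003-121243029 (minus strand), read 3.97, 5.92 and 4.92 at 10 weeks and between 1.45 and 1.47 at 1 week. It was above background on the 10-week arrays only, among all 12, and so passed the filter through them alone. It was at least 2.64-fold higher in the deposited values (limma adjusted p = 0.000166, as a description), and its smallest change over the 6 scalings was 0.69. The second, opposite Stx16, a syntaxin of Golgi traffic, at chr2:174076899-174076958 (minus strand), read 1.61, 1.85 and 1.91 at 10 weeks and 4.28, 4.82 and 4.59 at 1 week. It was above background on 0 arrays at 10 weeks and on all 3 at 1 week, and so passed the filter through the 1-week arrays alone. In the deposited values it was at least 2.60-fold lower (limma adjusted p = 1.34e-05, as a description). Its means of 4.37 at 0 weeks and 4.39 at 2 weeks lay with 1 week, so the loss was seen at 10 weeks alone.

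The probe opposite Hspa1a, the inducible HSP70 chaperone gene with a near-identical neighbour, has 47 bases at chr17:34972107-34972153 (plus strand). It read 3.13, 3.65 and 3.83 at 10 weeks and 6.22, 5.49 and 5.33 at 1 week, a change of -2.14 (SE 0.32, limma adjusted p = 0.00138), with 2 of 3 arrays above background at 10 weeks. The probe upstream of Cdr1 on its opposite strand, at chrX:61185640-61185699 (plus strand), read 8.36, 7.26 and 8.74 against 9.73, 10.32 and 10.20. Its change was -1.96 (SE 0.32, limma adjusted p = 0.00205) and -1.95 in the scaled signal, and the 2-week mean of 9.63 lay near 1 week. The next largest called changes were -1.38 (SE 0.18) upstream of Leng9 in its sense and then 4 rises, at Gm40796, Gm32705, 1500009C09Rik and Ctag2l1. The probe in the sense of Gm40796 rose by 1.29 (SE 0.21, limma adjusted p = 0.00229), and 2 other probes there by 1.01 and 0.75. The probes antisense to 1500009C09Rik and Ctag2l1 rose by 1.24 (SE 0.33) and 1.11 (SE 0.36). The probe antisense to Gm32705 was not above background on any 1-week array. It was at least 1.65-fold higher in the deposited values, and its smallest change over the 6 scalings was 0.23.

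A few probes matched a miRNA hairpin, and 6 of them were tested. Such a probe reports a precursor or a longer transcript across the hairpin, not the mature miRNA. The probe of Mir196b, a miRNA gene of the Hoxa cluster, is shown with its mature products from RefSeq (GRCm38.p6) because it was the only one called. Capitals mark the bases inside the hairpin for the probe and the seed (bases 2 to 8) for the mature forms.
CUST_OEV3_055743: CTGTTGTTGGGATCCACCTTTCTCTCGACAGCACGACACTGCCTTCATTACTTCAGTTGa
mmu-miR-196b-5p: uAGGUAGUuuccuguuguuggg
mmu-miR-196b-3p: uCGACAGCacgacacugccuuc
The probe covers all 22 bases of the 3p form and the last 11 bases of the 5p form, without the 5p seed. It read 5.24, 5.42 and 5.53 at 10 weeks and 5.97, 6.30 and 5.91 at 1 week, and the groups did not overlap. The change was -0.66 (SE 0.16, limma adjusted p = 0.0141), but -0.32 in the scaled signal (limma adjusted p = 0.117) and -0.11 in the unscaled signal, and it also missed the threshold without 1-week replicate 2 and when only the 6 arrays were fitted (limma adjusted p = 0.0532). The probes of Mir3069, Mir410, Mir6516, Mir719 and Mir1839 had changes of -0.50, -0.39, -0.19, -0.18 and -0.04, none past the threshold. The probes of Mirlet7c-2, Mir137, Mir20a and Mir181b-1 were above background on none of the 6 arrays and were not tested.

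Rises and falls were spread unevenly over kinds of probe. Catalogue probes had 2969 called higher (9.28%) and 5759 lower among 31995 tested, custom probes 2338 (9.47%) and 1476 (5.98%) among 24680. With the scaled signal the catalogue probes had 4893 rises and 4397 falls and the custom probes 5664 and 705, so falls outnumbered rises among catalogue probes in the deposited values but not in the scaled signal, while rises outnumbered falls among custom probes in both. Among probes above background on all 6 arrays the shares were 8.54% and 18.4% for catalogue probes and 8.96% and 6.41% for custom probes.

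The balance also moved with base composition. Among catalogue probes above background on all 6 arrays, those with a GC content of at most 35% had 5.16% higher and 24.6% lower, and the shares shifted through 8.86% and 17.9% at 40% to 45% GC to 11.3% higher, with 695 lower of 5352, above 50% GC. The median change went from -0.26 to 0.02 in the deposited values and from -0.06 to 0.10 in the scaled signal. Catalogue probes with no stop codon in any of the 3 forward reading frames had 13.2% higher and 13.3% lower, against 7.75% and 21.3% for those with a stop in every frame. Open frames and GC content are tied, since stop codons are rich in A and T, and the part of one in the other was not tested. The motif AATAAA, the polyadenylation signal, searched on the printed strand only, was in 4100 tested probes, of which 8.22% were higher and 15.9% lower, against 9.34% and 12.1% of those without it. Among catalogue probes this difference was small, with 19.2% and 17.9% lower. These shares describe probes, which are not independent, and RNA quality or labelling of the 10-week arrays was not measured.

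**Figure D5:**
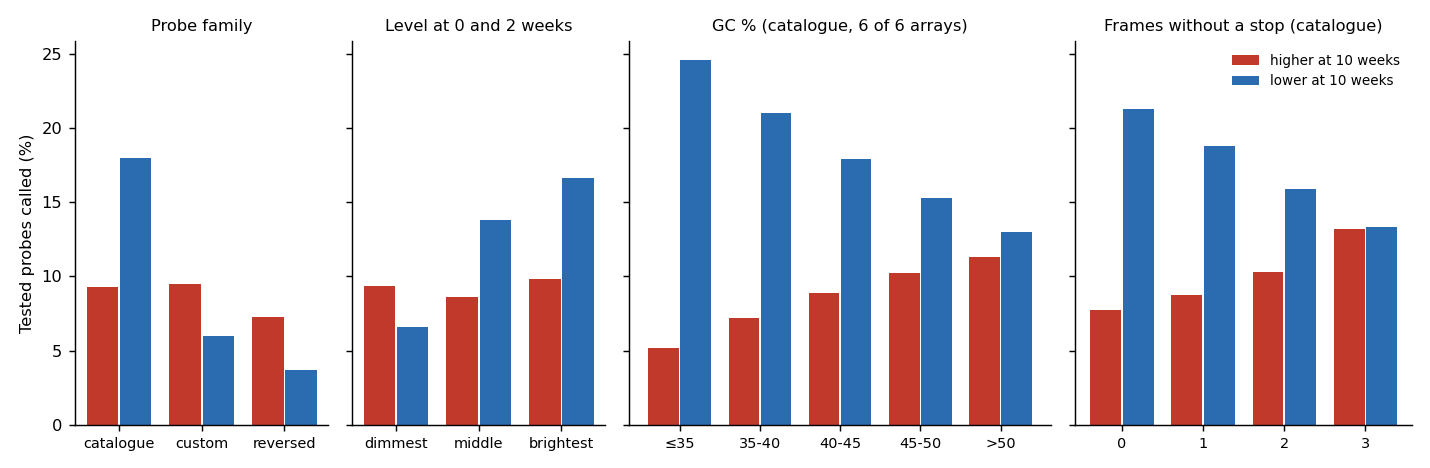
Percentage of tested probes called higher (red) and lower (blue) at 10 weeks with the deposited values, by probe family, by level on the 0-week and 2-week arrays, by GC content and by number of reading frames without a stop codon. Falls make up 24.6% of catalogue probes at or below 35% GC and 15.3% over 45% to 50%.

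Probes that read the same sequence mostly moved together. The tested probes held 2437 pairs that share at least 20 bases (median 51), over 1802 probes. Across pairs the changes correlated at 0.882, as a description. Both probes were called in 1025 pairs, in the same direction in 1014 and in opposite directions in 11, and in 243 pairs only 1 was called. Probes recur across pairs, so the pairs are not independent, and 21.6% of all tested probes were called.

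One set of custom probes may not read RNA as intended. A block of 15000 custom probes with consecutive IDs matched RefSeq windows in 108 cases when their letters were read backwards, against 6 as printed, and 472 of them shared 25 bases with other probes when read backwards, against 18 as printed. Of these 472, 76 passed the detection filter, against 357 of their 420 partners. In 176 pairs both the probe and its partner were tested, and their changes correlated at 0.729, with probes recurring across pairs. Among the tested ones, 14 of the 76 probes and 55 of the 357 partners were called, against 21.6% of all tested probes. In the whole set 19.3% of probes were tested, against 31.3% of other custom and 61.9% of catalogue probes. The set had 7.24% higher and 3.72% lower among 2902 tested probes, and no probe named here belongs to it.

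The change from 0 to 2 weeks shares no array with this comparison in its group means and shows how the same probes differed after AOM with the first DSS course. The spread behind the calls was fitted over all 12 arrays in both, so the lists of calls are not independent. The 0-week mice were untreated, so AOM, DSS and time changed together there and cannot be told apart. By the same fit, 2320 of the 59577 probes were higher (3.89%) and 2148 lower (3.61%) at 2 weeks than at 0 weeks. Of these, 632 were higher in both comparisons, which is 27.2% of the 2-week list and 11.5% of the 10-week list, and 490 were lower in both, or 22.8% and 6.67%. Over all tested probes, 9.26% were higher and 12.3% lower at 10 weeks. In opposite directions, 185 rose at 10 weeks but fell at 2 weeks, and 138 the reverse. Il1b and both probes with the largest falls had already moved by 2 weeks, while both probes with the largest rises had not. Across all tested probes the changes correlated at 0.203.

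The array's control probes gave a check on the scale, and not all of them were level. Of 68 control probes, the deposited values of all 10-week arrays lay above all 1-week arrays for 5 and below them for 12, against 19.3% and 20.7% of the tested probes. In the unscaled signal 31 lay above and 0 below. The corner controls were among those apart in the deposited values. GE_BrightCorner had means of 16.08 at 10 weeks and 15.4 at 1 week (0.68), and DarkCorner, not above background on any of the 6 arrays, 1.65 and 2.07 (-0.42). Mouse GAPDH, a glycolytic enzyme, read 13.71, 14.43 and 14.29 at 10 weeks and 14.19, 14.21 and 13.82 at 1 week on the probe numbered 3, a difference of 0.07. On the probe numbered 5 it read 16.00, 16.22 and 16.11 against 15.81, 15.91 and 15.88, a difference of 0.25 with no overlap. All 6 GAPDH probes, which include human and rat versions, differed by 0.07 to 0.38, and 4 of them did not overlap. Both mouse probes of PGK1, another enzyme of glycolysis, differed by 0.04, and the 5 PGK1 probes above background on all 6 arrays by -0.02 to 0.24, with overlapping groups. The 7 probes of the E1A spike-in transcripts above background on all 6 arrays differed by -0.51 to -0.04, all with overlapping groups, and the 14 such control probes named DCP by -0.79 to 0.54. With 3 arrays against 3, an exact permutation test cannot go below p = 0.10. In the unscaled signal the 4 mouse probes differed by -0.01 to 0.32, against a median of 0.46 over tested probes, and the dim negative control (-)3xSLv1 differed by 0.31.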

How the data were processed

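Labelled cRNA from 12 colorectal samples (4 groups of 3) was hybridised to 1-colour (Cy3) arrays of 180870 spots, 4974 of them controls. Per the file headers and the submitters' processing notes, the deposited intensity of each spot was read from the scan by Agilent Feature Extraction 10.7.1.1, and the processed signal is that intensity after background subtraction. The authors also deposited a table of log2 values; how it was normalized is not given in the sources used here. Its columns share their quantiles, and each correlates at 0.9953 or more with the log2 processed signal of its array, so it was taken as quantile normalized.

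Spots of a probe were averaged, and a probe counted as above background on an array when at least 0.5 of its spots were. The limma package (3.58.1, under R 4.3.3; lmFit, eBayes, no covariates) fitted group means over all 12 arrays, and p-values were adjusted by Benjamini-Hochberg over all 59577 tested probes. No tested probe was saturated. The number of arrays limits the precision. A gene was represented by its brightest tested probe. Named genes were the 12 largest rises and 12 largest falls called in both sources with groups apart in both and at least 2 arrays above background in each, the 5 brightest genes seen in 1 group only, list members, and the 2 largest rises and falls among probes; predicted genes were left out of the first part. The arrays' replicate numbers were not used as pairs in the main fit. The comparison, its members and the gene lists were chosen with earlier results of these data known. Alternatives covered scaling, background correction, filters, the arrays fitted, blocks and leaving out each array. Protein sequences were not used here.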

Additional observations from a re-analysis of the deposited data

How the results depend on the processing

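The number of changed probes, 12860, stayed within 1.5 times under all alternatives but 2, the unscaled processed signal (23232) and leaving out 1-week replicate 2 (8034). Leaving out each array in turn gave 8034 to 11824 probes and 30 to 42 genes. The number of changed genes, 50, moved to 83 in the unscaled signal, 32 without a filter and 30 without 1-week replicate 2. The 2207 probes seen in 1 group only became 2194 when all spots of a probe had to be above background. With the replicate number as a block (replicate block), 12240 probes and 45 genes were called, and Cadm2, Csrnp1 and Lmx1b missed the threshold. Same-numbered arrays correlated at 0.049, 0.188 and -0.063 in their deviations from the group means. The highest values for other numbers were 0.2, -0.042 and 0.07. With 3 arrays per group these values cannot decide whether the numbers pair the samples. With slide as a random block, estimated at a correlation of -0.095, 16548 probes were called. Normexp gave 1653 changes of at least 2-fold against 5675, since its offset shrinks dim changes. Over the named genes, probes and hairpins, 575 of 648 values under alternatives stayed on the same side of the threshold. Another 68 missed it, 5 newly passed it and 0 were called in the opposite direction. Changes that were not called could change sign, as for the probe of Mir3069 (-0.50, but 0.08 in the unscaled signal). The scaled signal is 1 of these alternatives and was also used to choose part of the named genes. Signal over background limits the dim probes, of which 12890 tested ones were above background on fewer than 6 arrays. Causes were not tested.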
